A study of Mus musculus with 8 samples.

Results

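The RNA of 10 genes of the bone morphogenetic protein (BMP) pathway was examined in embryonic ventricles with and without cardiomyocyte Pkn2: the ligand genes Bmp2, Bmp4, Bmp5, Bmp6 and Bmp7, the receptor genes Bmpr1a and Bmpr2, and the target genes Id1, Id2 and Id3. The genes were chosen by symbol, with earlier results of these data known. All 10 were found among the 55291 gene symbols of the deposited count table and in the deposited TPM table. The study compared 4 libraries from E10.5 embryos of genotype Pkn2 fl/fl; XMLC2-Cre+ (cKO) with 4 libraries from Cre-negative Pkn2 fl/fl littermates (control), all from lines kept on C57BL/6N (the strain label of the libraries reads C57BL/6). Controls therefore carried the floxed alleles too and differed by the absence of Cre, so that an effect of Cre itself and the loss of Pkn2 cannot be told apart. XMLC2-Cre is a cardiomyocyte driver, whereas RNA was taken from whole ventricular tissue, which also holds endocardial, epicardial and blood cells. By the study's methods the experimental unit was the single animal, so the p-values measure the spread between embryos of a group. In such bulk samples, fewer cells of a type and less RNA per cell cannot be told apart.

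BMP ligands are secreted dimers that bring together type I receptors, such as the product of Bmpr1a, and type II receptors, such as the product of Bmpr2. The type I receptor then phosphorylates SMAD1, SMAD5 and SMAD9, which enter the nucleus with SMAD4 and switch on target genes, among them the Id genes. ID proteins are helix-loop-helix factors without a DNA-binding domain, and they hold back differentiation by binding E proteins. In the embryonic heart, myocardial BMP2 and BMP4 are known for their roles in the atrioventricular canal and the outflow tract, BMP5 and BMP7 overlap in function, and BMP10 is required for growth of the trabeculated ventricular wall.

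RefSeq promoters of GRCm38.p6 were matched for 7 of the 10 genes (Bmp4, Bmp5, Bmp6, Bmpr1a, Bmpr2, Id2 and Id3). Of these, 3 are shown for the 250 bases before the RefSeq transcription start: the 2 matched Id genes, as the direct readout of the pathway, and Bmp5, a ligand gene whose groups did not overlap. Capitals mark GGCGCC, the GC-rich element that BMP-activated SMADs bind, and GTCTG or its reverse complement CAGAC, the SMAD-binding element; the 2 motifs were searched on both strands and share no overlapping letters here. Id2 lies at chr12:25096093-25096342 (minus strand), Id3 at chr4:136143572-136143821 (plus strand) and Bmp5 at chr9:75775115-75775364 (plus strand). The Id2 and Id3 windows lie within the gene spans given with the deposited TPM values (25093799 to 25097140 and 136143497 to 136145392). For these genes the RefSeq start therefore differs from the outer start of that annotation.
Id2: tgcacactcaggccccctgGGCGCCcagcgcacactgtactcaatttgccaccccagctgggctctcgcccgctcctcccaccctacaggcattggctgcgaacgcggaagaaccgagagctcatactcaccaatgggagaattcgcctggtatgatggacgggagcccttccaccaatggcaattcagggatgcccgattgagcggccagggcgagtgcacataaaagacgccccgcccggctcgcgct
Id3: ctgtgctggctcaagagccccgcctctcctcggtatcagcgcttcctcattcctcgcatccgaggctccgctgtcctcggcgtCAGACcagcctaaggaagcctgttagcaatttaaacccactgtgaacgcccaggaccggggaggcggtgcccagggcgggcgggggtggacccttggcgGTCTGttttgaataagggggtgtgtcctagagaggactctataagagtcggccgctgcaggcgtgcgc
Bmp5: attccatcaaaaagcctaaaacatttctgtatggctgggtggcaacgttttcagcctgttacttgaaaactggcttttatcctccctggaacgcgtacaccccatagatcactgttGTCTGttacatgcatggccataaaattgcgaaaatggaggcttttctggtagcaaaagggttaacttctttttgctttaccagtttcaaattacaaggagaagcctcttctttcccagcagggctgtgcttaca

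GGCGCC was present in 3 of the 7 promoters (Bmpr1a, Bmpr2 and Id2) and in 9.59% of 32851 promoters of the same length. In Id2 it began 231 bases before the start. GTCTG or CAGAC was also present in 3 of the 7 (Bmp5, Bmp6 and Id3), and in 42.2% of all promoters. Id3 held it at 167 and 68 bases before its start and Bmp5 at 134 bases. These matches describe the letters of a short window and say nothing of binding in these hearts.

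Libraries held 47559845 to 56660938 counts (median 50884838), and the least abundant of the 10 genes, Bmp6, had 286 to 647 counts per library. Levels are given as CPM (counts relative to the TMM-adjusted library size) for comparisons of a gene between libraries, and as the authors' TPM, which is scaled by transcript length, for comparisons between genes. Pkn2 itself averaged 81.2 ± 3.07 CPM in cKO against 144 ± 9.85 CPM in control ventricles (SD, n = 4 each), and its groups did not overlap. Of the 9 cardiomyocyte markers, all were detected in all 8 libraries, and their summed level was 34938 to 38498 CPM in cKO and 35153 to 39067 CPM in controls. That sum is mostly sarcomere RNA. Singly, 6 of the 9 were lower and 3 higher in cKO, and 4 had an unadjusted p under 0.05 with edgeR. The smallest adjusted p of the 9 was that of Nkx2-5. This gene encodes a cardiac transcription factor and is named after its values were seen. It was lower in each cKO library, at 80.1% of the control mean. Its log2 fold change was −0.32 (adjusted p = 0.109 by edgeR), and it did not pass the threshold of an adjusted p of 0.05. All 12 endothelial and endocardial markers were higher in cKO, with 6 past the threshold and none at 0, and their sum was 1802 to 2230 CPM against 1410 to 1666 CPM. All 6 macrophage markers were also higher in cKO, with 2 past the threshold, none at 0 in any library and 2.22 as their median log2 fold change, at a low summed level of 5.16 to 22.8 CPM against 2.44 to 5.97 CPM. Over all genes tested, 0.515% passed the threshold and were higher in cKO. Of the genes with a mean of at least 1 CPM, 1.55% passed in either direction. The part of the cell types marked by these lists in the values below was not tested. The sums of the 6 cushion mesenchyme markers (267 to 341 against 273 to 336 CPM) and the 7 epicardial markers (344 to 520 against 438 to 463 CPM) overlapped between the groups. Singly, 0 of the 6 and 2 of the 7 had an unadjusted p under 0.05 with edgeR, and 0 passed the threshold.

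The levels of the 10 genes spanned a wide range. By mean TPM in controls, the order was Id2, Id3, Bmp7, Id1, Bmpr1a, Bmp5, Bmpr2, Bmp4, Bmp2 and Bmp6. Id2 was at 188 ± 8.82 TPM and Bmp6 at 3.36 ± 0.491 TPM (SD, n = 4). Neighbours in this order had separate control ranges except for Bmp7 (93.2 to 105 TPM) and Id1 (79.3 to 99.8 TPM), and for Bmp4 (9.89 to 13.2 TPM) and Bmp2 (7.17 to 11.9 TPM), whose ranges overlapped. In cKO the same order held with 1 exchange: Id1, at 83.9 ± 17.6 TPM, stood above Bmp7, at 75.9 ± 5.19 TPM, with overlapping ranges. The cKO ranges also overlapped for Id2 and Id3, Bmpr2 and Bmp4, Bmp4 and Bmp2, and Bmp2 and Bmp6. Bmp7 was thus the most abundant of the 5 ligand genes in both groups.

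Bmp7 RNA was lower in cKO, and it was the only one of the 10 genes past the threshold of an adjusted p of 0.05. Over all 26820 genes tested, 0.858% passed that threshold, with 0.343% lower and 0.515% higher in cKO. Among genes with a mean of at least 1 CPM the share was 1.55%. Bmp7 (ENSMUSG00000008999, chromosome 2 of GRCm38, 172868012 to 172940321, minus strand) encodes a ligand of the BMP5, BMP6 and BMP7 subgroup. It was at 149, 166, 147 and 162 CPM in cKO replicates 1 to 4 and at 201, 208, 198 and 225 CPM in control replicates 1 to 4. Each cKO library was below each control library, and the gap between the groups was larger than the spread within either. On average cKO ventricles held 75.1% of the control amount, a log2 fold change of −0.41 with a standard error (SE) of 0.060 and a 95% interval of −0.54 to −0.28 (adjusted p = 0.00478, edgeR quasi-likelihood test, Benjamini-Hochberg). On leaving out single libraries, the log2 fold change stayed between −0.44 and −0.37 and the adjusted p between 0.00405 and 0.0272. With limma on log2 TPM the direction was kept, but the adjusted p was 0.0553 to 0.182, and over all alternatives it ran from 3.10e-08 to 0.182.

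**Figure D1:**
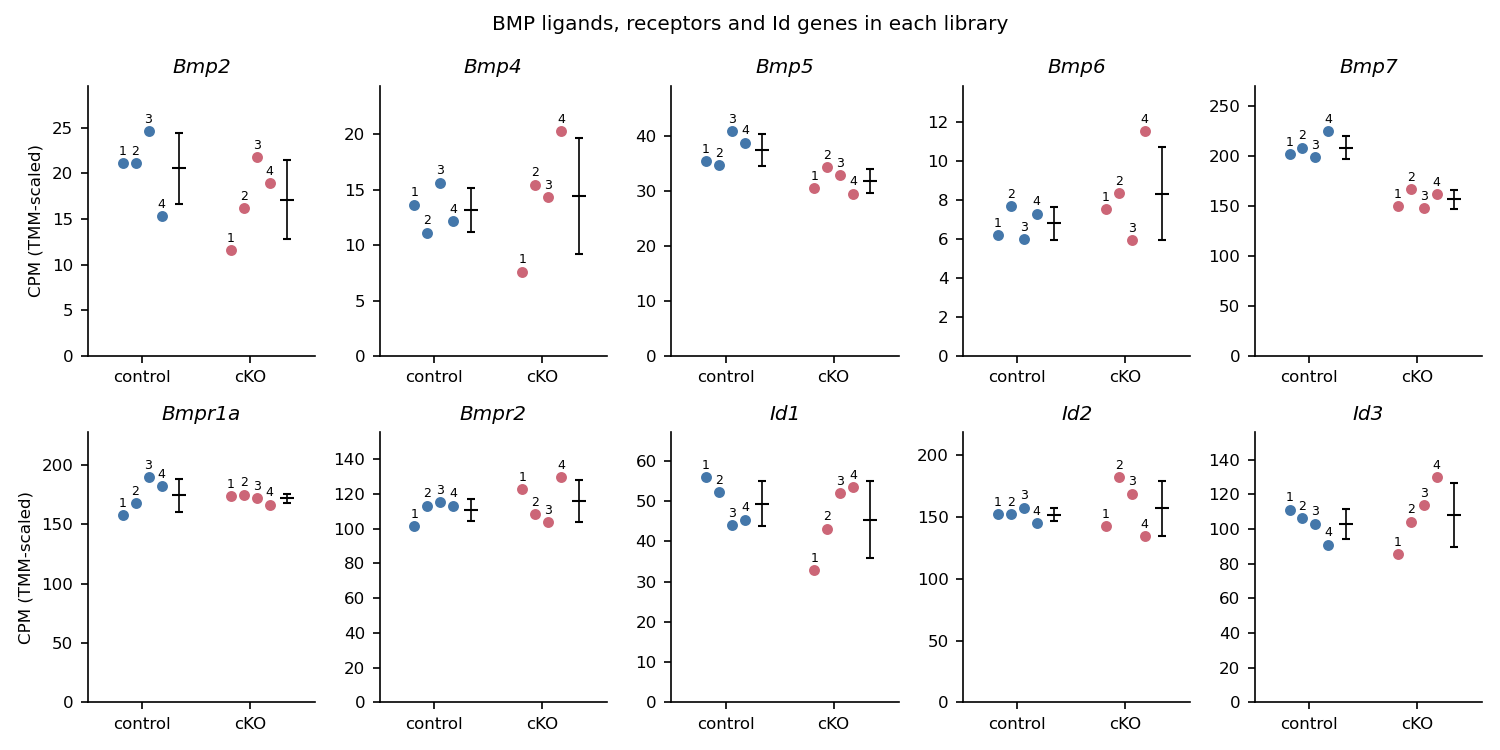
CPM (TMM-scaled counts, vertical axis from 0) of each of the 10 genes in the 4 control and 4 cKO libraries, with replicate numbers beside the points and bars for the mean ± SD. The Bmp7 points of cKO (147 to 166 CPM) all lie under those of controls (198 to 225 CPM), and the Bmp5 groups are apart by a narrow gap, while the groups of the other genes overlap.

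Bmp5, which encodes the close relative of BMP7, was also lower in each cKO library than in each control library, but did not pass the threshold. It was at 30.5, 34.3, 32.8 and 29.5 CPM in cKO replicates 1 to 4 and at 35.4, 34.6, 40.9 and 38.7 CPM in control replicates 1 to 4. The highest cKO library and the lowest control library, both replicate 2, were nearly equal. The log2 fold change was −0.24 (SE 0.072, 95% interval −0.39 to −0.08, unadjusted p = 0.00481, adjusted p = 0.142 by edgeR). Groups without overlap were found for 2 of the 10 genes, both lower in cKO, and for 6.91% of all genes tested, of which those lower in cKO made up 3.77% of all genes tested. Among genes with a mean of at least 1 CPM, to which all 10 belong, the groups of 9.96% did not overlap.

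Bmp6, the third gene of that subgroup, had the opposite sign and a wide spread. Its cKO libraries 1 to 4 were at 7.52, 8.35, 5.93 and 11.6 CPM, and its control libraries at 6.19, 7.69, 6.01 and 7.31 CPM. The cKO group held both the lowest and the highest of the 8 values. The log2 fold change was 0.30 (SE 0.17, adjusted p = 0.505 by edgeR), and 0.10 without cKO replicate 4. That library also had the highest endothelial marker sum, 2230 CPM. It was the highest as well for the cushion mesenchyme (341 CPM), epicardial (520 CPM) and erythroid marker sums (3643 CPM). The part of these cell types in the Bmp6 value was not tested.

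Bmp2 and Bmp4 encode the other closely related ligand pair, and neither passed the threshold. Bmp2 was at 11.6, 16.2, 21.8 and 18.9 CPM in cKO replicates 1 to 4, against 21.1, 21.1, 24.6 and 15.3 CPM in control replicates 1 to 4. Its log2 fold change was −0.26 (SE 0.16, 95% interval −0.60 to 0.08, adjusted p = 0.549 by edgeR), and −0.11 without cKO replicate 1, the lowest library. Bmp4 was at 7.62, 15.5, 14.3 and 20.3 CPM in cKO and 13.7, 11.1, 15.7 and 12.2 CPM in controls. Its lowest and its highest library were both cKO libraries, replicates 1 and 4. The Bmp4 log2 fold change was 0.13 (SE 0.20, 95% interval −0.29 to 0.56, adjusted p = 0.862 by edgeR). It was 0.35 without cKO replicate 1 and −0.07 without cKO replicate 4, so its sign rested on single libraries.

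The summed RNA of the 5 ligand genes was lower in cKO, and Bmp7 and Bmp5 held most of that sum. It was 112, 133, 121 and 133 TPM in cKO replicates 1 to 4 and 147, 155, 153 and 153 TPM in control replicates 1 to 4. These groups did not overlap, and the cKO mean was 82.2% of the control mean. Bmp5, Bmp6 and Bmp7 together were at 104 ± 6.49 TPM in cKO and 131 ± 5.13 TPM in controls (SD, n = 4 each), whereas Bmp2 and Bmp4 together were at 20.9 ± 6.18 and 21.2 ± 3.18 TPM. Without Bmp7, the sum of the remaining 4 ligands overlapped between the groups, at 38.5 to 54.9 TPM in cKO and 48.1 to 59.6 TPM in controls. Bmp7 made up 60.9% ± 3.37 of the 5-ligand sum in cKO and 65.1% ± 3.23 in controls. These sums describe genes already given one by one and were not tested.

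**Figure D2:**
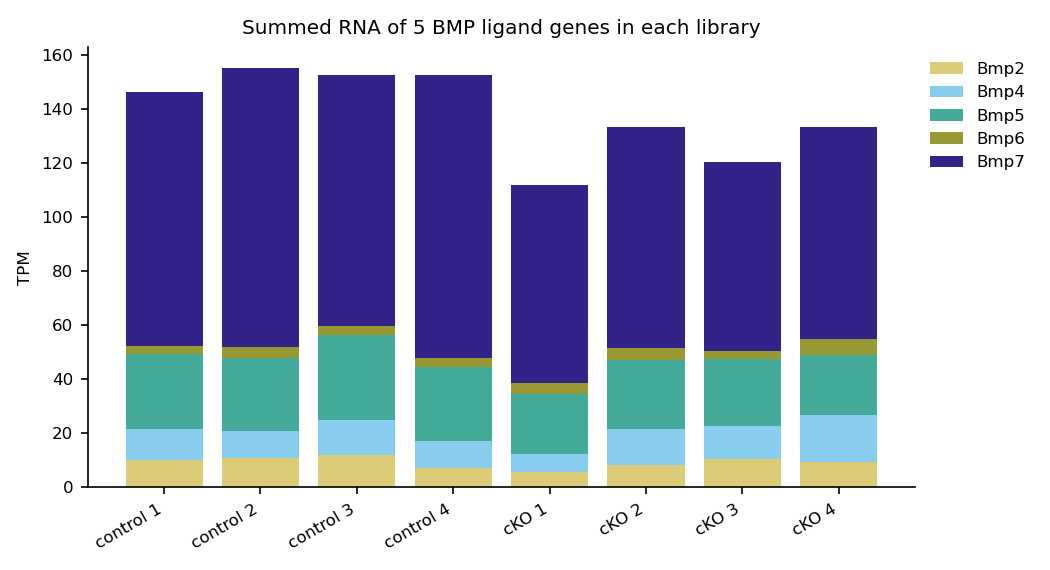
Stacked TPM (length-scaled, vertical axis from 0) of the 5 ligand genes in each of the 8 libraries. The cKO columns reach 112 to 133 TPM and the control columns 147 to 155 TPM, and most of each column is Bmp7.

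The 2 receptor genes lay close to the control level. Bmpr1a, which encodes the type I receptor BMPR1A (ALK3) needed in the myocardium, was at 174, 175, 172 and 166 CPM in cKO and 158, 168, 189 and 182 CPM in controls. All 4 cKO values fell inside the control range. The log2 fold change was −0.02 with a 95% interval of −0.15 to 0.11 (adjusted p = 0.939 by edgeR), and its sign changed in 6 of the 17 alternative fits. Bmpr2, which encodes a type II receptor, was at 123, 108, 104 and 129 CPM in cKO and 102, 113, 115 and 113 CPM in controls. Its cKO replicates 1 and 4 were above all controls and its log2 fold change was 0.07, with a 95% interval of −0.09 to 0.22 (adjusted p = 0.792 by edgeR). The intervals of both genes leave out a change as large as the fitted change of Bmp7 in either direction.

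None of the 3 Id genes passed the threshold with edgeR (0 at an unadjusted p under 0.05, and 0 with DESeq2 or limma-voom), although they were among the most abundant of the 10. Id2 was at 143, 182, 169 and 134 CPM in cKO and at 152, 152, 157 and 145 CPM in controls. Its controls were tightly grouped, whereas its cKO libraries lay on both sides of them, with a coefficient of variation of 14.1% against 3.44%. The log2 fold change was 0.05 (SE 0.081, 95% interval −0.12 to 0.22, adjusted p = 0.875 by edgeR).

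Id1 was at 32.9, 43.2, 52.0 and 53.5 CPM in cKO and at 55.9, 52.2, 44.1 and 45.4 CPM in controls. Its cKO replicates 1 and 2 were below all controls and the other two were inside the control range. The log2 fold change was −0.12 (SE 0.12, 95% interval −0.38 to 0.13, adjusted p = 0.770 by edgeR) and 0.01 without cKO replicate 1. Id3 was at 85.5, 104, 114 and 130 CPM in cKO and at 111, 106, 103 and 91.0 CPM in controls, with the lowest and the highest value both in cKO. Its log2 fold change was 0.07 (SE 0.098, 95% interval −0.14 to 0.28, adjusted p = 0.837 by edgeR). The 3 Id genes summed to 435 ± 46.5 TPM in cKO and 418 ± 32.2 TPM in controls. A fall of the size fitted for Bmp5 lies inside the interval of Id1 and outside those of Id2 and Id3.

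**Figure D3:**
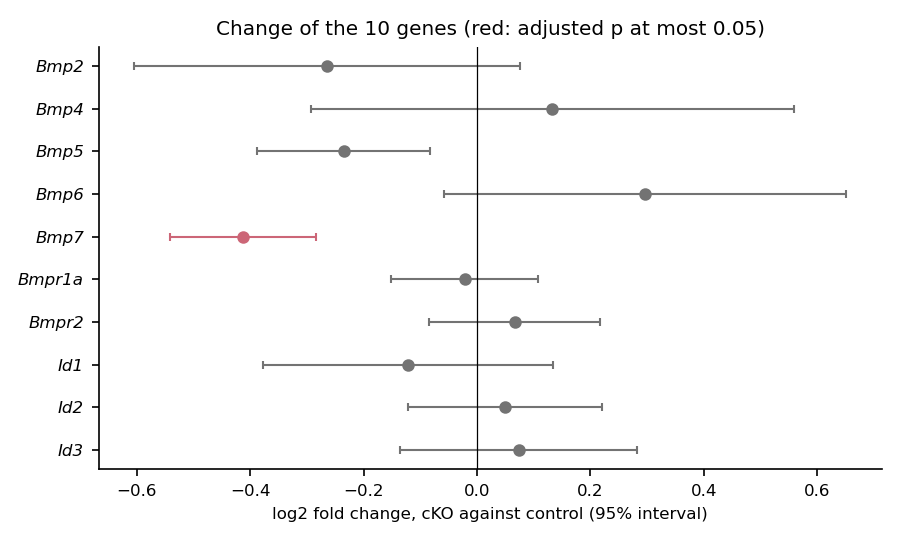
Log2 fold change of each of the 10 genes (horizontal axis, cKO against control, points) with its 95% interval from the edgeR fit (bars). The interval of Bmp7 (−0.54 to −0.28), in red, and that of Bmp5 (−0.39 to −0.08) lie below 0, and those of the other 8 genes include 0.

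Among themselves, the cKO libraries had a larger coefficient of variation than the controls for 8 of these genes, Bmp5 and Bmpr1a being the exceptions. cKO replicate 1 was the lowest of the 8 libraries for 4 of the 10 (Bmp2, Bmp4, Id1 and Id3). It was also the lowest for 13 of the 46 further pathway genes with a mean of at least 1 CPM (28.3%), where it was the lowest for 16.5% of all genes at that level. cKO replicate 4 was the highest for Bmp4, Bmp6, Bmpr2 and Id3 and for 17 of the 46 (37.0%), and for 19.8% of all genes at that level. Bmp4 had the largest coefficient of variation of the 10 in cKO, 36.3% against 14.9% in controls, whereas in controls Bmp2 had the largest, 18.9%, and Bmp7 varied little in either group (5.94% and 5.68%).

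The wider pathway was examined through 61 further genes, of which 59 were tested. The lists were drawn up with earlier results of these data known. Their counts are therefore descriptive and do not test for an excess over all genes. With edgeR, 3 of the 59 passed the threshold, 1 higher (Sost) and 2 lower (Hand1 and Tll1) in cKO. Over all genes tested 0.858% passed, and 1.55% of those with a mean of at least 1 CPM, to which 46 of the 59 belong. The median log2 fold change of the 59 was 0.02, and that of all genes tested was −0.00085. Of the 59, 31 were higher and 28 lower in cKO. An unadjusted p under 0.05 was found for 15 of the 59 and for 12.8% of all genes tested. It was found for 2615 of the 14302 genes with a mean of at least 1 CPM. The groups did not overlap for 7 of the 59, for 6.91% of all genes tested and for 9.96% of those with a mean of at least 1 CPM.

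Of the 9 further ligand genes, none passed the threshold with edgeR, DESeq2 or limma-voom, and 1 had an unadjusted edgeR p under 0.05. Bmp10, the trabecular ligand, averaged 209 ± 28.2 CPM in cKO against 202 ± 23.8 CPM in control ventricles (SD, n = 4 each). Its log2 fold change was 0.05 (95% interval −0.15 to 0.25, adjusted p = 0.901 by edgeR). Its mean was below that of Bmp7 in controls (78.5 against 98.8 TPM), with separate ranges. In cKO its mean was above that of Bmp7 (83.3 against 75.9 TPM), with overlapping ranges. With Bmp10 and the 8 other ligand genes added, the ligand sum overlapped between the groups, at 198 to 238 TPM in cKO and 217 to 244 TPM in controls. The one with an unadjusted p under 0.05 was Gdf5, named after its values were seen, with no more than 0.125 CPM in any library.

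Of the 9 further receptor and co-receptor genes, none passed with edgeR or limma-voom, and Eng passed with DESeq2. An unadjusted edgeR p under 0.05 was found for 3 of the 9 and for 12.8% of all genes tested. It was found for 2615 of the 14302 genes with a mean of at least 1 CPM, to which all 9 belong. Eng encodes endoglin, an endothelial co-receptor, and was at 266, 232, 222 and 326 CPM in cKO and 224, 208, 184 and 192 CPM in controls, so that 3 of 4 cKO libraries were above all controls. Its log2 fold change was 0.37 (adjusted p = 0.0981 by edgeR and 0.0118 by DESeq2, and 0.00323 to 0.453 over all alternatives). Acvrl1, which encodes the endothelial type I receptor ALK1, was at 7.37 ± 1.13 CPM against 5.55 ± 1.26 CPM (log2 fold change 0.41, adjusted p = 0.289 by edgeR). The 12 endothelial markers had a median log2 fold change of 0.36, and their part in the values of Eng and Acvrl1 was not tested. Acvr1, which encodes the type I receptor ALK2, was higher in each cKO library (51.8 to 57.3 CPM against 49.4 to 51.6 CPM), with a log2 fold change of 0.11 (adjusted p = 0.416 by edgeR).

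Bmpr1b, which encodes another type I receptor, was at 4.29, 5.46, 7.05 and 3.39 CPM in cKO and 6.52, 7.90, 7.30 and 7.83 CPM in controls. Its log2 fold change was −0.55 (SE 0.18, adjusted p = 0.173 by edgeR), and −0.75 (adjusted p = 0.0233) without cKO replicate 3, the highest cKO library, with a range of 0.0233 to 0.506 over all alternatives. Bmpr1b lies on chromosome 3, at a distance of 621 kb from Pkn2 on GRCm38.

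The SMAD, inhibitor and E protein genes showed no call with edgeR, DESeq2 or limma-voom: 0 of 4 for the SMAD transducers (0 at an unadjusted edgeR p under 0.05), 0 of 7 for the intracellular and membrane inhibitors (1 at that level) and 0 of 3 for the E proteins that bind ID proteins (0 at that level). Smad1, Smad5, Smad9 and Smad4 had log2 fold changes of 0.02, 0.09, −0.18 and −0.02 (adjusted p from 0.579 to 0.965 by edgeR). Smad6, Smad7 and Bambi encode inhibitors that BMP signalling itself induces, and had log2 fold changes of −0.09, 0.06 and −0.05 (adjusted p from 0.815 to 0.845 by edgeR). Smad6 was at 49.9 CPM in cKO replicate 1 and at 71.2 to 85.4 CPM in the other cKO libraries, and at 64.9 to 79.2 CPM in controls.

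Of the 20 extracellular modulators, 18 were tested and 2 passed the threshold with edgeR. That share was 0.858% over all genes tested and 1.55% over genes with a mean of at least 1 CPM. An unadjusted p under 0.05 was found for 5 of the 18, for 12.8% of all genes tested and for 2615 of the 14302 genes with a mean of at least 1 CPM. Tll1, which encodes a tolloid-like protease that can release BMPs from their antagonists, was at 2.44, 2.26, 2.22 and 2.16 CPM in cKO and at 3.86, 4.44, 4.89 and 4.87 CPM in controls. Each cKO library was below each control library. On average cKO ventricles held 50.3% of the control amount, a log2 fold change of −0.99 (SE 0.15, adjusted p = 0.00513 by edgeR), from 107 to 123 counts per cKO library and 209 to 277 per control library. With limma on log2 TPM its adjusted p was 0.0999 to 0.182, and over all alternatives it ran from 6.21e-08 to 0.182.

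Sost, which encodes sclerostin, a secreted protein best known as an inhibitor of WNT signalling, was at 13.5, 9.70, 8.02 and 16.7 CPM in cKO and at 5.29, 3.73, 4.19 and 5.85 CPM in controls. Each cKO library was above each control library, with a log2 fold change of 1.33 (SE 0.20, adjusted p = 0.00513 by edgeR). With limma on log2 TPM its adjusted p was 0.0649 to 0.230, and over all alternatives it ran from 1.24e-08 to 0.230. Its cKO replicates 1 and 4, the highest, were also those with the highest endothelial marker sums, 2143 and 2230 CPM. Among cKO libraries they also had the highest macrophage (22.8 and 13.7 CPM) and erythroid marker sums (2693 and 3643 CPM). The part of these cell types in the Sost value was not tested. The antagonist gene Nog was at 5.16 ± 1.34 CPM against 6.40 ± 0.627 CPM (log2 fold change −0.31, adjusted p = 0.487 by edgeR). Bmper, which encodes a BMP-binding endothelial regulator, had a log2 fold change of 0.30 (adjusted p = 0.282 by edgeR). Grem1, which encodes the antagonist gremlin, had 0 counts in each of the 8 libraries, which allows up to 3 counts in each.

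**Figure D4:**
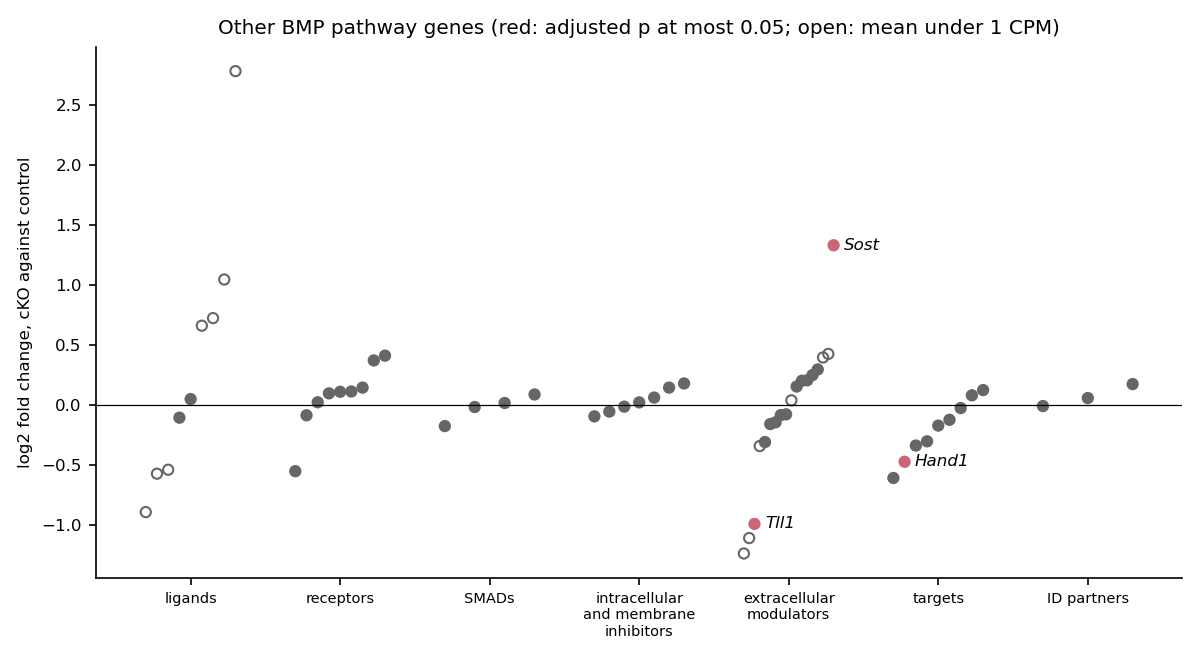
Log2 fold change (vertical axis, cKO against control) of the 59 tested further pathway genes, sorted within each role, with open circles for genes whose mean was under 1 CPM. Red marks the 3 genes past the threshold, Sost (1.33), Tll1 (−0.99) and Hand1 (−0.47).

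Of the 9 further target genes, 1 passed the threshold with edgeR, as did 0.858% of all genes tested and 1.55% of those with a mean of at least 1 CPM. An unadjusted p under 0.05 was found for 5 of the 9, for 12.8% of all genes tested and for 2615 of the 14302 genes with a mean of at least 1 CPM. All 5 were lower in cKO (Hand1, Tbx3, Tbx20, Id4 and Msx2). Of the 9 target genes, 7 were lower and 2 higher, with a median log2 fold change of −0.17. Among genes with a mean of at least 1 CPM, 7894 were lower and 6408 higher. Tbx3 and Msx2, named after their values were seen, had log2 fold changes of −0.30 and −0.34 (adjusted p = 0.234 and 0.377 by edgeR). The target gene past the threshold was Hand1, which encodes a transcription factor of the left ventricle. It was at 67.1, 80.7, 73.4 and 58.3 CPM in cKO and at 92.5, 99.1, 94.7 and 102 CPM in controls, with no overlap. On average cKO ventricles held 72.1% of the control amount, a log2 fold change of −0.47 (SE 0.080, adjusted p = 0.0112 by edgeR). The call was lost without cKO replicate 1 (adjusted p = 0.0524) or without control replicate 4 (adjusted p = 0.0583), and with limma on log2 TPM (adjusted p from 0.0934 to 0.252). Over all alternatives its adjusted p ran from 3.62e-05 to 0.252. Tbx20, which encodes a cardiac T-box factor, had a log2 fold change of −0.17 (adjusted p = 0.303 by edgeR). Tbx2, which encodes the T-box repressor of the atrioventricular canal, had one of −0.03 (adjusted p = 0.976 by edgeR). Id4, the least expressed Id gene, was at 1.79 ± 0.571 CPM against 2.72 ± 0.801 CPM (log2 fold change −0.61, adjusted p = 0.309 by edgeR).

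**Figure D5:**
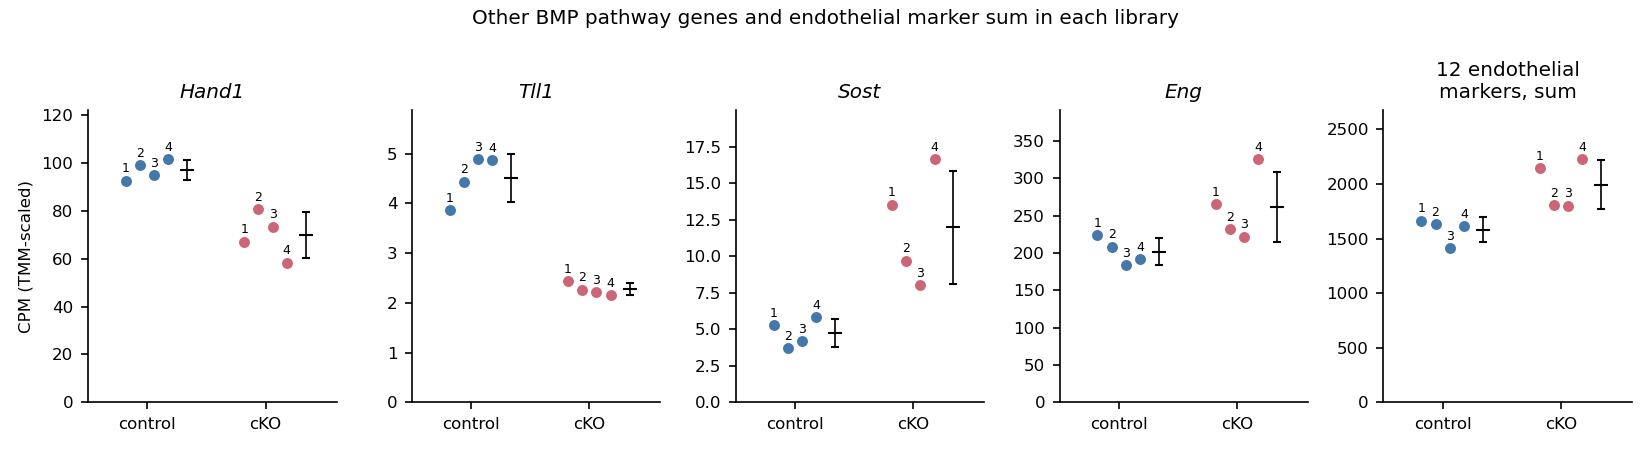
CPM (TMM-scaled, vertical axes from 0) of Hand1, Tll1, Sost and Eng and the summed CPM of 12 endothelial and endocardial markers in the 4 control and 4 cKO libraries, with replicate numbers beside the points and bars for the mean ± SD. The groups of Hand1, Tll1, Sost and of the marker sum do not overlap, and cKO replicate 4 is the highest library for Sost (16.7 CPM), Eng (326 CPM) and the marker sum (2230 CPM).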

How the data were processed

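Polyadenylated RNA from 8 samples of ventricular tissue was sequenced. The authors deposited raw counts per gene and, in a separate table, TPM values. Per the labels, the submitters' processing notes name Trim Galore 0.6.7, HISAT2 2.2.1, StringTie 2.2.1 and featureCounts; gene positions in the TPM values as deposited follow GRCm38. Genes with at least 8 counts in total (26820) were tested with edgeR 4.0.16 (quasi-likelihood test, TMM scaling, no covariate, 2-sided, R 4.3.3), with Benjamini-Hochberg adjustment over all of them and a threshold of 0.05. Intervals are 95% intervals of that fit. Standard errors are the absolute log2 fold change divided by the square root of F. Alternatives were DESeq2 1.42.0, limma 3.58.1 (voom, and log2 TPM with a pseudocount of 1 or 0.1), other filters and scaling, a replicate block, and leaving out each library. The genes and lists were chosen with earlier results of these data known. Named further genes are Pkn2, 18 pathway genes listed by role (ligand, receptor, SMAD, inhibitor, modulator, target) and any list gene past the threshold, and others are marked where they appear. On simulated counts (4 against 4 libraries, 25978 genes), changes were planted only in genes with a mean of at least 1 CPM. Changes of 0.5 on the log2 scale were found in 61.0% of cases and changes of 1 in 90.0%, and 5.63% of calls were false. Smaller changes were not planted. Outside the pathway, the marker lists for outflow progenitors (84.8 to 97.8 CPM in cKO, 83.3 to 102 CPM in controls), atrial (2032 to 2294, 1897 to 2167), erythroid (995 to 3643, 1128 to 3567) and hepatic cells (12.7 to 18.6, 13.3 to 39.8) were summed. Singly, 0 markers of these lists passed the threshold. An unadjusted edgeR p under 0.05 was found for 3 of 4 tested hepatic, 2 of 4 atrial, 0 of 6 erythroid and 0 of 5 outflow markers. The hepatic markers had a median log2 fold change of −2.25, and all 6 erythroid markers were higher in cKO. Counts are reads without molecular identifiers, so a limit set by a count of 0 covers counting error alone.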

Additional observations from a re-analysis of the deposited data

Results flagged for a closer look

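Over 31 genes in 2 groups each, 2 of 62 groups held a library farther from the others than Dixon's 95% critical value for 4 samples allows, and chance gives about 1 in 20. Bmpr2 was at 101.6 CPM in control replicate 1 and at 113.2 to 115.3 CPM in the other controls. Bmper was at 14.23 CPM in cKO replicate 1 and at 18.87 to 19.82 CPM in the other cKO libraries.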

How the results depend on the processing

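The count of all genes past the threshold, 230, was 867 with DESeq2, 878 with no filter on low counts, and 22, 25 and 1 with limma on log2 TPM (pseudocount 1, pseudocount 0.1, and no filter), and 67 to 744 when each library was left out (71 without cKO replicate 1, 744 without cKO replicate 3, and 67, 135, 87 and 69 without control replicates 1 to 4). Bmp7 was called in 14 of 17 alternatives, and 0 of the 10 genes in the 3 TPM fits. The further pathway genes called, 3, were 0 in the 3 TPM fits and 2 to 5 when each library was left out, with 5 without cKO replicate 3. Bmpr1a turned to 0.0034, 0.0035 and 0.0034 and Smad4 to 0.0302, 0.0307 and 0.0302 in the 3 TPM fits (log2 scale); the cause was not tested. Leaving out libraries turned the sign of Bmp4 (−0.0737 to 0.35), Bmpr1a (−0.0621 to 0.021), Id1 (−0.20 to 0.0113), Id2 (−0.0193 to 0.12), Id3 (−0.0187 to 0.18), Bmp10 (−0.032 to 0.11), Smad1 (−0.0387 to 0.0567), Smad4 (−0.0389 to 0.0249), Smad6 (−0.20 to 0.0400), Smad7 (−0.0155 to 0.13), Bambi (−0.0883 to 0.0181) and Tbx2 (−0.14 to 0.15). Samples that share a replicate number did not deviate together (r from −0.19 to 0.01 over 14302 genes), and 0 of 4 cKO libraries correlated best with their own number. The numbers therefore gave no sign of pairing. cKO replicates 1 to 4 correlated best with control replicates 3, 4, 1 and 2 (r from 0.10 to 0.18). Whether libraries with different numbers share a litter was not tested. With a replicate block 380 genes passed, and of the further pathway genes Eng was added.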
